A study of Mus musculus with 24 samples.

Results

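The cytosolic ribosomal protein genes were described in Ocy454 cells, a mouse osteocytic line, given LPA (lysophosphatidic acid, a signalling lipid), 1,25D (1,25-dihydroxyvitamin D, the active vitamin D hormone) or the 2 together. Members were chosen by name: protein-coding genes whose symbol is Rpl or Rps followed by a digit, plus Rpsa, Rplp0, Rplp1 and Rplp2. Pseudogenes, the S6 kinase genes and Rps19bp1 were left out. The rule found 85 genes of 49172, 52 of the large subunit and 33 of the small, and used no measured value. Fau, which encodes a ribosomal protein fused to a ubiquitin-like protein, has another symbol and was not a member.

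RNA was sequenced from 24 libraries in 8 groups of 3. Cells received vehicle, LPA, 1,25D or both agents for 2 h or for 8 h; the sources used here state no dose. All groups share the same line, and whether a group's 3 libraries are separate cultures is not stated, so each p-value reflects variation among these libraries, which may be technical. Ocy454 is a conditionally immortalised line, and RNA was extracted with a column kit as total RNA. Group names follow the sample titles. The libraries go against those titles for the single agents: Cyp24a1, the enzyme that degrades 1,25D and is induced by its receptor, had 102 summed counts in the 8 h libraries labelled LPA and 87 with both agents. It had 1 count in those labelled 1,25D and 1 in vehicle. Vdr, the 1,25D receptor, averaged 254 CPM (SD 6.88, n = 3) at 8 h in libraries labelled LPA and 72.3 CPM (SD 1.91) in those labelled 1,25D. The names of the deposited tables carry the 2 letters exchanged. Single agents are therefore given as "labelled LPA" and "labelled 1,25D", and every direction below holds for the label only.

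Totals were 33.0 to 33.8 M estimated counts per library. Of the osteocyte markers, Pdpn (mean 56.1 TPM, a length-corrected share of transcripts) and Cd44 (82.0 TPM) were present and Dmp1 was low (1.11 TPM). Phex was at 0.17 TPM, and Sost, Mepe, Fgf23 and Dkk1 were at or near 0. Among osteoblast and matrix genes, Col1a1 (709 TPM), Col1a2 (403 TPM), Runx2 (25.5 TPM) and Bglap (4.68 TPM) were highest. Lower were Alpl (0.828 TPM), Sp7 (0.36 TPM) and Ibsp (0.0178 TPM). Of 14 markers of macrophages and blood, endothelium, fat and skeletal muscle, Cd68, a macrophage marker, was at 14.8 TPM (11.0 to 18.8 over libraries) and the muscle gene Acta1 at 2.19 TPM, both above Dmp1. The other 12 ran from 0.00166 TPM (Myod1) to 0.628 TPM (Cdh5), with Ptprc at 0.0655 TPM, Kdr at 0.00488 TPM and Adipoq at 0.0110 TPM. The part of other cell types in the results was not tested.

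Ribosomal proteins assemble with ribosomal RNA in the nucleolus and are needed in equal number, apart from the repeated stalk proteins. Their messages are short and abundant, and most begin with a terminal oligopyrimidine (TOP) tract, a run of C and T bases at the start through which mTORC1 and LARP1 control their translation and storage. Many of their introns hold small nucleolar RNAs, which guide the modification of ribosomal RNA, and their genes have left many processed pseudogenes in the mouse genome.

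The starts of 6 members are printed to show what the family has in common at its promoters and where it does not. Each line runs from 60 bases before to 20 after the start annotated by RefSeq on GRCm38.p6, and capitals mark the longest unbroken run of C and T from 30 bases before the start onwards. The members were picked after their values were seen: the first 5 passed the test in the comparison of both agents with the label LPA at 8 h, and Rpl22l1 had the smallest difference there.
Rps25 (chr9:44407654-44407733, plus strand): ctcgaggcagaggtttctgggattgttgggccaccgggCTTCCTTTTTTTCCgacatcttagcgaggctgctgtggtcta
Rpl14 (chr9:120571457-120571536, plus strand): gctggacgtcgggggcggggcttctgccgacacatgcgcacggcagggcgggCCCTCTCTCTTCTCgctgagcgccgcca
Rps6 (chr4:86857348-86857427, minus strand): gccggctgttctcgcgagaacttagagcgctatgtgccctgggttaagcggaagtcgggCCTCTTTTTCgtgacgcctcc
Rpl7a (chr2:26910747-26910826, plus strand): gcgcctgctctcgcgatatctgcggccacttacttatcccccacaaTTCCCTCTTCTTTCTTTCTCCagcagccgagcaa
Rps9 (chr7:3703981-3704060, plus strand): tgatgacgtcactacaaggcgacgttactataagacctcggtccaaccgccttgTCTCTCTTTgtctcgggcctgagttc
Rpl22l1 (chr3:28805448-28805527, plus strand): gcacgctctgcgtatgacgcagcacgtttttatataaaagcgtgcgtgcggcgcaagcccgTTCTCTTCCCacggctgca

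The run spanned 21 bases in Rpl7a, 14 in Rps25 and in Rpl14, 10 in Rps6 and Rpl22l1, and 9 in Rps9. Shorter runs occurred in members not printed, such as Rpl34 (8 bases) and Rpl36al (5 bases). In 26 of the 65 members with an entry in the table, 40.0%, a run of at least 10 C or T bases lay on the printed strand within 30 bases of an annotated start, against 12.6% of all 27025 genes in the table. The 7 letters CCGGAAG, the core of sites bound by ETS-family factors such as GABP, or their reverse complement, were found in the 300-base window of 26 members (40.0%) and of 9.9% of all genes. Matches are descriptions of these letters, and annotated starts may lie some bases from the true start. In the comparison of both agents with the label LPA at 8 h, described below, the median log2 difference was 0.39 in the 26 members with a run and 0.38 in the 37 tested members without one. It was 0.41 with the ETS core and 0.36 without it.

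Ribosomal protein messages made up a large part of the RNA. Summed over members, they held 11.5% of all TPM (SD 0.761, 24 libraries), from 9.90% in the library labelled LPA 8 h replicate 3 to 12.8% in the library labelled LPA 2 h replicate 2. Among the 100 genes with the highest mean TPM, 31 were members, and 38 members exceeded 1000 TPM. Because the messages are short (median 658 nucleotides against 2141 for all tested genes), their share of estimated counts was only 4.86%.

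Levels differed between members by far more than between libraries. Among the highest were Rpl41 (mean 5711 TPM, 4594 to 6497 over libraries), which encodes the shortest ribosomal protein, the stalk protein gene Rplp1 (5135 TPM), Rps2 (5031 TPM) and Rps26 (4546 TPM). Of the other members that the rule names, Rpsa, encoding the laminin-receptor-related small subunit protein, was at 4443 TPM and Rplp0, the base of the stalk, at 2542 TPM, while the stalk protein gene Rplp2 was lower, at 443 TPM. The lowest tested members were Rps27rt (9.57 TPM), Rpl5 (23.8 TPM), Rpl22l1 (30.9 TPM), Rpl7l1 (39.9 TPM) and Rpl12 (47.3 TPM). Rpl3l, a muscle paralog of Rpl3, averaged 0.125 TPM and Rpl10l, a testis paralog of Rpl10, 0.00861 TPM. Those 2 did not pass the filter on low counts, so 83 members were tested.

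**Figure D1:**
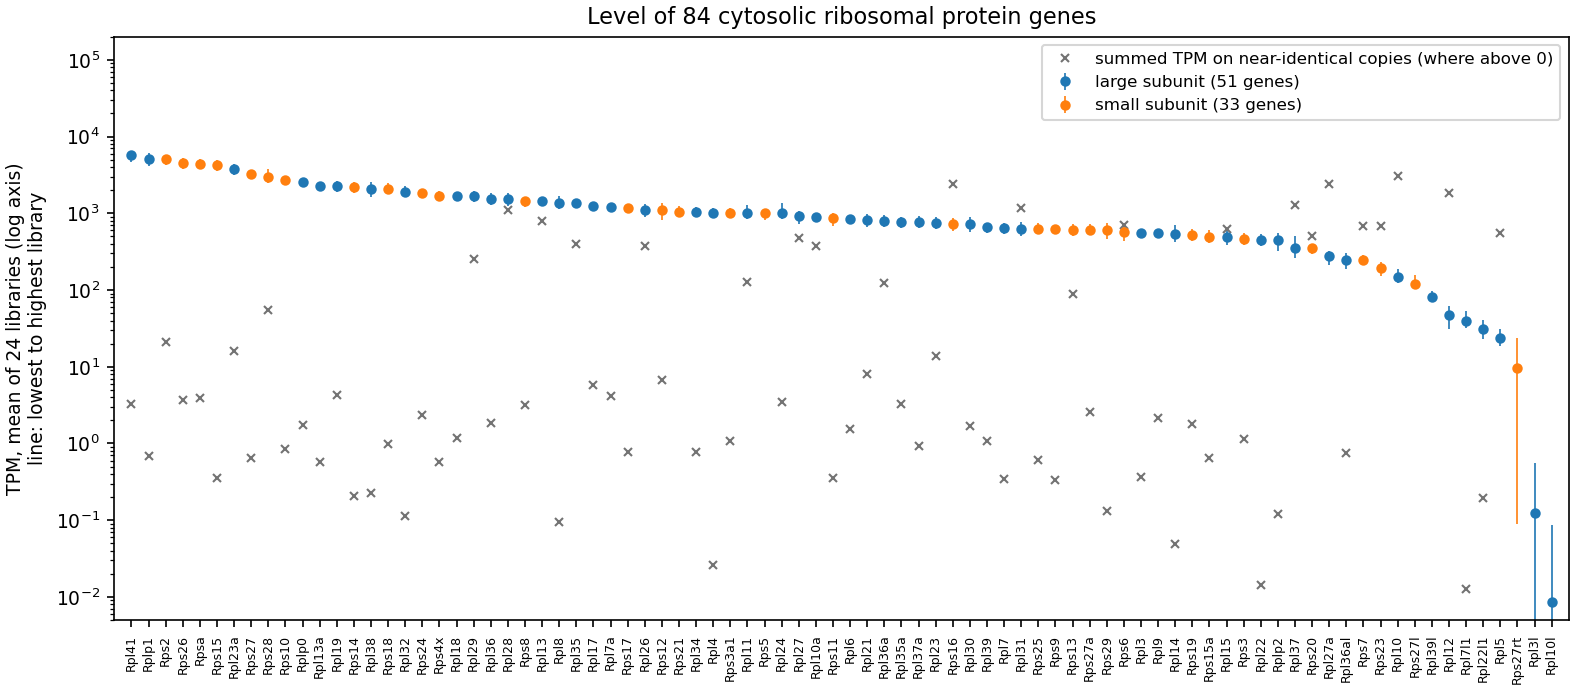
Mean TPM of 84 of the 85 members over 24 libraries on a log axis, ordered by level, with lines from the lowest to the highest library; crosses give the summed TPM of near-identical copies. Most members lie within a narrow band of libraries, while copies of Rpl10, Rpl12 and Rpl5 stand far above the genes themselves.

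The low values of Rpl5 and Rpl12 go with reads placed on copies. Rpl5 and Rpl12 encode core large subunit proteins, yet 94.4% and 95.3% of their family's counts lay on near-identical genes (at least 95% identity over 80% of the copy), chiefly the processed pseudogenes Gm15500 (550 TPM) and Gm10275 (1846 TPM). For Rpl10 the share was 95.3%, on Rpl10-ps3 (3035 TPM), for Rpl27a 71.4%, for Rps16 65.2%, for Rps7 60.8% and for Rps23 53.7%. In all, 636 such genes, 623 of them annotated as pseudogenes, matched 80 members and held 2.04% of TPM (SD 0.165). Copies took over 10% of the family's counts for 20 members, so the level of a single gene among these is uncertain, and whether the copies themselves were transcribed was not tested.

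Each paralog was below the gene it resembles. Rps27 averaged 3242 TPM, Rps27l, a p53-regulated paralog, 119 TPM, and the intronless Rps27rt 9.57 TPM. Rpl22 averaged 455 TPM against 30.9 for Rpl22l1, and Rpl7 641 TPM against 39.9 for Rpl7l1. Rpl36a (786 TPM) and Rpl36al (247 TPM), and Rpl39 (656 TPM) and Rpl39l (82.1 TPM), differed less.

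Part of the members' reads was assigned to transcripts that are not annotated as coding. This share was 17.3% of the members' estimated counts (SD 0.481, 24 libraries; 16.5 to 18.6%), and group means ran from 17.0 to 17.5%. It came from few genes: the median member had 0.79%, while Rps16 had 89.8%, Rpsa 78.1%, Rps26 69.5% and Rpl12 66.7%. The members' annotated transcripts comprised 236 coding, 176 with a retained intron, 65 processed and 25 marked for nonsense-mediated decay. Short reads cannot place shared exons on 1 isoform with certainty, so these shares are estimates.

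The members moved together between replicate libraries of one group. For each library the TMM-scaled CPM (each library's count scaled to a common total) of each member was set against the mean of its group on the log2 scale. In 21 of 24 libraries over 75% of the 83 tested members lay on the same side of their group mean, and in the 8 h library with both agents, replicate 3, 83 of 83 lay below it. Over all tested genes the larger side held 50.3 to 56.1%. The median deviation of the members spanned 0.14 log2 units between the libraries labelled 1,25D at 8 h and 0.37 between those labelled LPA at 8 h, where replicate 1 was at 0.19 and replicate 2 at -0.17. With both agents at 8 h it spanned 0.36, from -0.14 in replicate 3 to 0.22 in replicate 2.

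**Figure D2:**
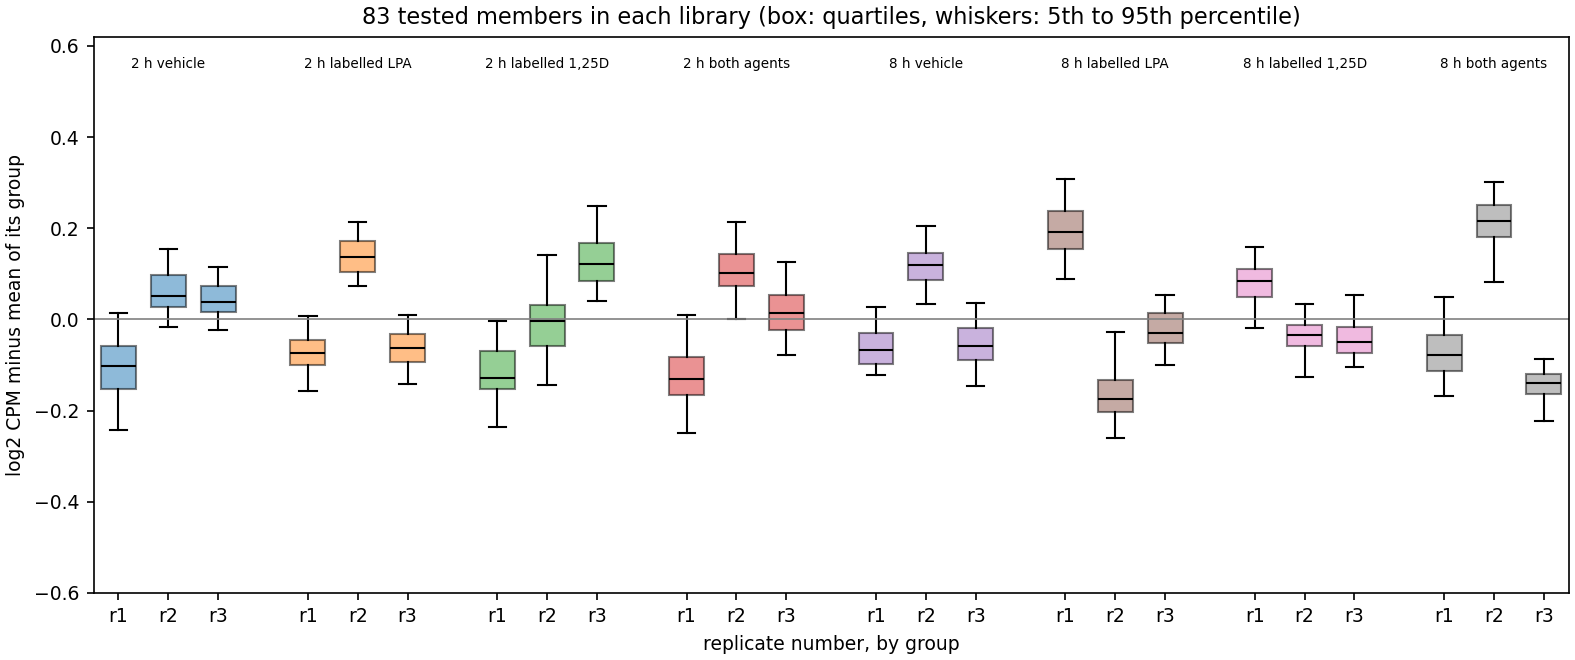
Log2 CPM of the 83 tested members minus the mean of their group, for each of 24 libraries (box: quartiles, whiskers: 5th to 95th percentile). Whole boxes lie above or below 0, for example above 0 in the 8 h library with both agents replicate 2 (median 0.22) and below 0 in the 8 h library labelled LPA replicate 2 (median -0.17).

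Other short messages moved with the members. The median deviation of the 2486 other tested genes with transcripts under 1000 nucleotides had the same sign as that of the members in 24 of 24 libraries, and the library highest for members was highest for them in 8 of 8 groups. Mitochondrial ribosomal protein genes, which are encoded in the nucleus and build a different ribosome, had the same sign in 24 of 24 libraries, other TOP messages (translation factors such as Eef1g) in 23 and ribosome biogenesis factors in 21. Genes with transcripts of 1000 nucleotides or more had it in 7. The points share libraries, scaling and depth. Within a group the median coefficient of variation of CPM was 9.13% for tested members, 11.1% for all tested genes and 6.2% for the 1976 tested genes with at least 100 CPM. It was lowest for Rpl12 (4.99%), Rpl7l1 (6.45%) and Rpl4 (6.65%), a core large subunit protein gene, and highest for Rps27rt (55.6%), Rps29 (14.0%) and Rpl10 (13.7%).

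At 2 h at most 1 member was called against vehicle in any group. With the label LPA, 0 of 83 members passed edgeR's quasi-likelihood test at an adjusted p of 0.05, while 0.785% of all tested genes did; 9 members had an unadjusted p under 0.05, and DESeq2 and limma also called 0. Their median log2 fold change was 0.14, with 80 of 83 above 0. In 25 of 83 members every library labelled LPA lay above every vehicle library, against 12.9% of all tested genes. One alternative did make calls: with a covariate for the first principal component of the libraries' deviations from their group means, 18 members were higher, where the share of all genes called rose to 15.6% and that called higher to 7.2%. This component was taken from the same tested genes, members included, so the covariate removes replicate variation that the members share. Counts with it, here and below, are therefore no independent check. With the label 1,25D, 1 member passed (Rpl12, higher), 1.2% against 13.9% of all tested genes (7.06% higher and 6.85% lower). With both agents 1 passed (Rpl12, higher), against 19.9%. The medians were -0.02 and 0.05, and 0.00 for all genes in each case.

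Both agents against the label LPA at 2 h again gave 1 call, Rpl12, against a background of 18.7% (9.48% lower), with a median of -0.08. Both agents against the label 1,25D gave 0 calls, against 0.767%, with 1 member at an unadjusted p under 0.05 and 0 calls by DESeq2 and limma. The interaction at 2 h (both agents minus each single agent plus vehicle, log2 scale) gave 0 calls, against 0.0365%, with 2 at an unadjusted p under 0.05 and 0 by DESeq2 and limma.

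Rpl12, which lies at the base of the stalk where elongation factors bind, was the member called most often, but its calls did not extend to its family of copies at 2 h. Of its own counts, 66.7% were assigned to transcripts not annotated as coding. Its own CPM at 2 h was 34.1, 33.1 and 34.2 in vehicle, 35.2, 38.3 and 36.2 with the label LPA, 40.8, 43.2 and 45.1 with the label 1,25D, and 38.4, 46.8 and 44.6 with both agents. The groups labelled 1,25D and both lay above vehicle without overlap. The log2 fold change against vehicle was 0.35 for the label 1,25D (adjusted p = 0.0041) and 0.36 with both agents (adjusted p = 0.0023). With the counts of its near-identical copies added, these became -0.05 (SE 0.10, adjusted p = 0.84) and 0.12 (SE 0.10, adjusted p = 0.48). The family's CPM was 710 to 789 in vehicle and 683 to 792 with the label 1,25D, which overlap.

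At 8 h the lowest shares were in replicates 2 and 3 of the label LPA, and the highest was in replicate 2 with both agents. The members' share of TPM was 11.5, 10.2 and 9.90% in the libraries labelled LPA, 11.2, 11.0 and 12.3% in vehicle, 11.6, 10.7 and 11.2% with the label 1,25D, and 11.5, 12.8 and 11.6% with both agents. The group labelled LPA overlapped each of the others. The plot of shares shows the same libraries beside those of 2 h.

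**Figure D3:**
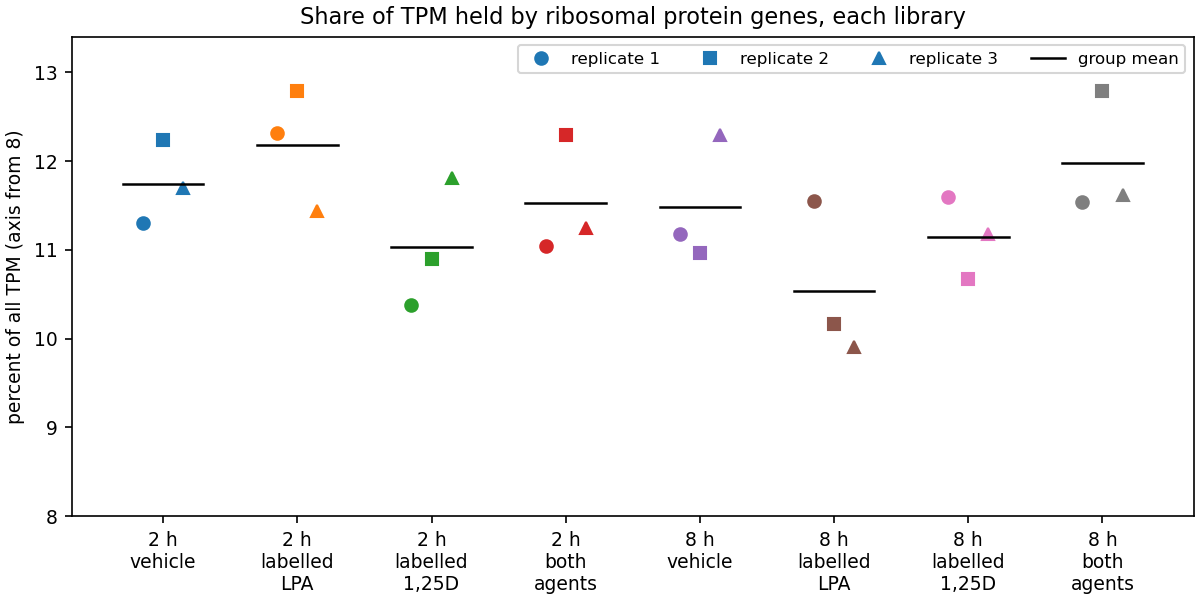
Percent of all TPM held by the 85 members in each library (points, 3 replicates per group) with the group mean (line); the axis starts at 8. At 8 h, replicates 2 and 3 of the label LPA are lowest (10.2 and 9.90%) and replicate 2 with both agents is highest (12.8%).

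Against vehicle at 8 h, 4 members fell with the label LPA, 4.82% of those tested, where 12.0% of all genes were called in either direction and 5.38% were lower. They were Rps9, a small subunit protein gene of the messenger RNA entry region, Rps27l, Rps2 and Rpl41. Rps9 measured 338, 371 and 324 CPM in vehicle and 301, 244 and 266 with the label LPA, without overlap, and its log2 fold change was -0.35 (SE 0.10, adjusted p = 0.025). Rps2 fell by 0.33 on the log2 scale (SE 0.10, adjusted p = 0.034), Rps27l by 0.30 (SE 0.09, adjusted p = 0.027) and Rpl41 by 0.40 (SE 0.12, adjusted p = 0.038). The median over members was -0.23, with 81 of 83 below 0, against 0.00 for all genes. In 20 of 83 members every library labelled LPA lay below every vehicle library, against 14.7% of all tested genes. The count was 38 without replicate 1 of the label LPA, 1 without its replicate 3, 0 without its replicate 2 or without vehicle replicate 2, and 9 without vehicle replicate 3. It was 0 when the 2 groups were fitted alone, 12 with DESeq2, 23 with no filter on low counts and 64 with the within-group component as covariate, which called 34.1% of all genes.

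With the label 1,25D at 8 h, 1 member passed (Rpl12, higher, log2 fold change 0.27, adjusted p = 0.024), against 16.2% of all genes, and the median was -0.07. The call was lost with copies added (-0.08, adjusted p = 0.65).

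With both agents at 8 h, 5 members rose above vehicle, 6.02%, where 16.8% of all genes were called and 9.54% were higher. They were Rpl12, Rpl7l1, Rpl5, Rpl36al and Rps27l, all from the lower end of the members' levels. Rpl7l1 measured 76.4, 79.6 and 79.3 CPM in vehicle and 109, 106 and 94.1 with both agents, without overlap, and rose by 0.39 (SE 0.08, adjusted p = 0.00086). Rpl36al measured 70.0, 76.6 and 69.8 CPM in vehicle and 87.4, 110 and 88.3 with both agents and rose by 0.40 (SE 0.13, adjusted p = 0.035). Rpl5, which with Rpl11 can bind the p53 regulator Mdm2 when it is outside the ribosome, rose by 0.38 (SE 0.12, adjusted p = 0.025). With copies added, the calls of Rpl12 (0.16, adjusted p = 0.34) and Rpl5 (0.18, adjusted p = 0.31) were lost and 3 members passed. The count was 2 without replicate 1 or replicate 2 of both agents or without vehicle replicate 1, 3 without vehicle replicate 3, and 2 when the 2 groups were fitted alone. It was 10 with offsets for GC content and transcript length, and 27 with the within-group component as covariate, which called 29.9% of all genes.

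The widest difference was between both agents and the label LPA at 8 h. Of 83 tested members, 68 were higher with both agents and 0 lower, 81.9%, where 22.9% of all tested genes were called and 14.0% were higher. The median log2 difference was 0.38 (range 0.11 to 2.16), against -0.04 for all genes, and 83 of 83 were above 0. In 54 of 83 members every library with both agents lay above every library labelled LPA, against 18.1% of all tested genes. The 2 subunits did not part: 41 of 50 large subunit members (median 0.38) and 27 of 33 small subunit members (median 0.39) passed.

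Rps27l measured 28.2, 27.0 and 30.8 CPM with the label LPA and 44.0, 44.5 and 37.9 with both agents. The groups did not overlap, and the difference was 0.56 log2 units (SE 0.09, adjusted p = 9.9e-05). Rps27a, whose product is made as a fusion with ubiquitin, measured 249, 198 and 220 CPM with the label LPA and 316, 360 and 282 with both agents. It differed by 0.52 (SE 0.10, adjusted p = 0.00062), again without overlap. Rps25, a small subunit protein needed by some viral internal ribosome entry sites, measured 184, 157 and 178 CPM against 243, 293 and 229, and differed by 0.56 (SE 0.12, adjusted p = 0.0014). Its start, printed above, holds one of the longer runs of C and T. Rpl12 (0.52, adjusted p = 7.7e-05) and Rpl7l1 (0.38, adjusted p = 0.0011) complete the 5 members with the smallest p.

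Rps6, the substrate of S6 kinase, measured 354, 259 and 278 CPM with the label LPA and 390, 475 and 385 with both agents. These did not overlap, and the difference was 0.49 (SE 0.13, adjusted p = 0.0098). Rpsa differed by 0.37 (SE 0.10, adjusted p = 0.0094), Rplp2 by 0.36 (SE 0.11, adjusted p = 0.027) and Rplp0 by 0.27 (SE 0.10, adjusted p = 0.049). Rplp1, at 0.36 (SE 0.13), did not pass (adjusted p = 0.053), although its libraries did not overlap, at 1419, 1002 and 1225 CPM with the label LPA and 1565, 1677 and 1451 with both agents. Rps27rt had the largest estimate, 2.16 (SE 0.77, adjusted p = 0.046), on 0.67, 0.54 and 0.03 CPM against 3.54, 1.10 and 0.96, so it rests on few counts. Among paralogs, Rpl22 passed (0.34, adjusted p = 0.031) and Rpl22l1 gave the smallest value of all members, 0.11 (SE 0.13, adjusted p = 0.58). Rpl39l passed (0.52, adjusted p = 0.0016), and Rpl39 gave 0.22 (SE 0.11, adjusted p = 0.17). Whether paralogs differ from each other was not tested.

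**Figure D4:**
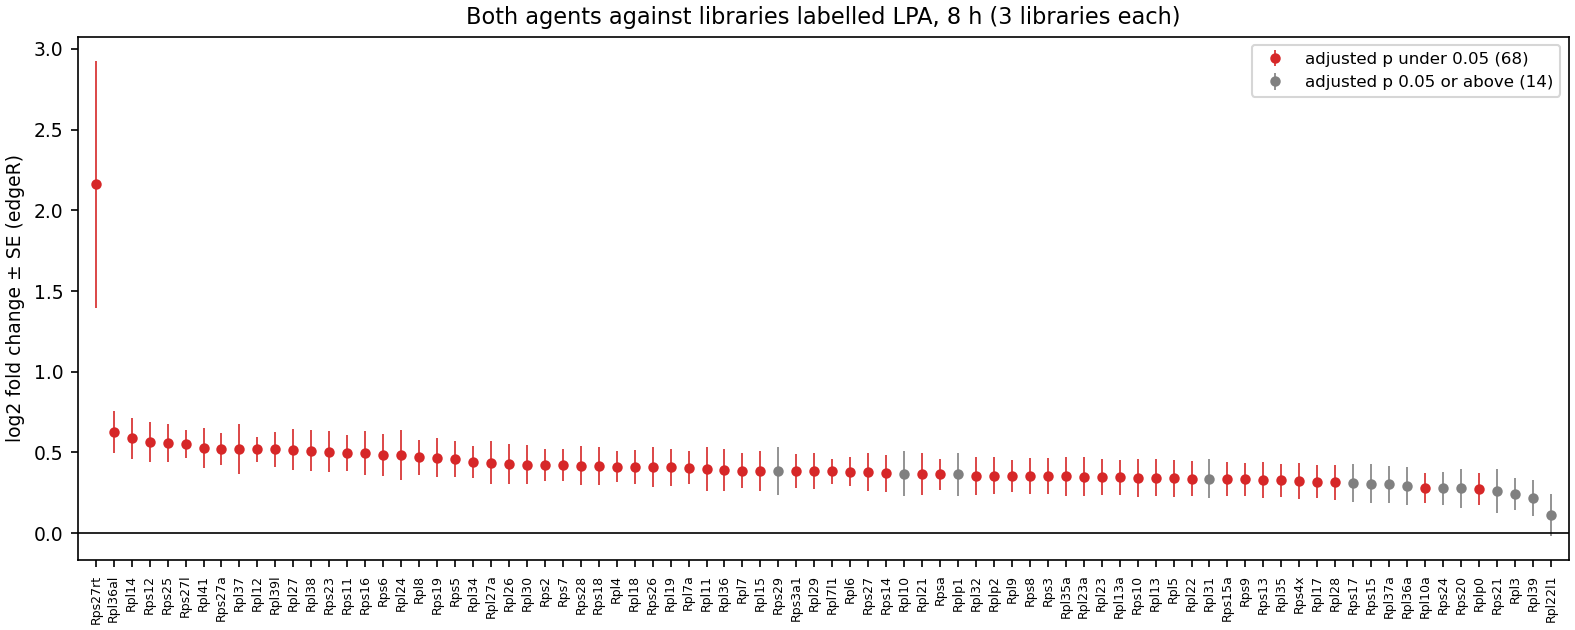
Log2 fold change ± SE (edgeR) of 82 of the 83 tested members between both agents and libraries labelled LPA at 8 h, 3 libraries each, ordered by size. All points drawn lie above 0. Of these, 68, Rps27rt included, pass an adjusted p of 0.05; the member not drawn did not pass. Apart from Rps27rt (2.16) they run from 0.63 for Rpl36al to 0.11 for Rpl22l1.

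The count of 68 moved with single libraries. It was 58, 18 and 77 without replicates 1, 2 and 3 of both agents, and 78, 18 and 34 without replicates 1, 2 and 3 of the label LPA. It was 7 when only these 2 groups were fitted, 36 with the GC and length offsets (median 0.23), 23 with limma on log2(TPM + 1), and 80 with the within-group component as covariate. In each of these settings no member was called lower. Other short genes moved the same way: of 2486, 17.6% were higher and 1.81% lower (median 0.14), while of 13855 genes with longer transcripts 13.0% were higher and 10.2% lower (median -0.07). The part of transcript length in the members' difference was not tested beyond these values.

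Against the label 1,25D at 8 h, both agents gave 3 higher members, 3.61%, against 9.18% of all genes called and 5.74% higher. They were Rpl5, Rps7 and Rpl34, and the median was 0.23 with 83 of 83 above 0. In 38 of 83 members every library with both agents lay above every library labelled 1,25D, against 16.8% of all tested genes. Rps7, a small subunit protein, measured 142, 143 and 147 CPM with the label 1,25D and 172, 213 and 164 with both agents, without overlap, a difference of 0.35 (SE 0.10, adjusted p = 0.028). Rpl34 differed by 0.33 (SE 0.10, adjusted p = 0.040) and Rpl5 by 0.44 (SE 0.12, adjusted p = 0.020). With copies added, the calls of Rps7 (0.31, adjusted p = 0.062) and Rpl5 (0.30, adjusted p = 0.078) were lost and 1 member passed. The count was 0 without replicate 1 or replicate 2 of both agents or without replicate 1 of the label 1,25D, 1 without its replicate 2 or 3, 10 without replicate 3 of both agents, 0 with the 2 groups alone and with limma, and 19 with no filter on low counts. With the within-group component as covariate it was 52, where 14.8% of all genes were called higher.

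The interaction at 8 h asks whether the effect of both agents differs from the sum of the single effects. It was positive in 83 of 83 members (median 0.46, all genes 0.04), and 19 passed, 22.9%, where 7.68% of all genes were called and 4.06% were higher. By p the first were Rpl13a (0.63, SE 0.15), whose product also acts outside the ribosome in an interferon-gamma translation control complex, Rps7 (0.57, SE 0.14), Rps12 (0.71, SE 0.18), Rpl34 (0.54, SE 0.14) and Rps9 (0.55, SE 0.14), with adjusted p from 0.034 to 0.040. Rpl13a measured 845, 1003 and 869 CPM in vehicle, 848, 632 and 705 with the label LPA, 777, 753 and 706 with the label 1,25D, and 872, 1080 and 825 with both agents. The libraries labelled 1,25D lay below vehicle, and those labelled LPA and those with both agents overlapped it. Rps12 followed the same order, at 360, 418 and 368, then 366, 252 and 295, then 359, 353 and 322, and 408, 548 and 396 CPM. The count was 0 with the 8 h groups fitted alone and with limma, 53 with DESeq2, 66 with no filter on low counts, 29 with copies added and 8 with the GC and length offsets. With the within-group component as covariate it was 75, where 37.3% of all genes were called.

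That count also moved with single libraries. It was 0 without replicate 2 of both agents, replicate 2 or 3 of the label LPA, any 1 replicate of the label 1,25D, or vehicle replicate 2. It was 2 without replicate 1 of both agents, 12 without vehicle replicate 1, 46 without vehicle replicate 3, 59 without replicate 3 of both agents and 73 without replicate 1 of the label LPA.

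Between vehicle at 8 h and at 2 h, 0 of 83 members passed, against 14.6% of all tested genes. The edgeR test gave 4 members an unadjusted p under 0.05, DESeq2 called 1 and limma 2, and the median was 0.07. The difference of both agents against the label LPA between 8 h and 2 h, a comparison chosen after seeing the data, was positive in 83 of 83 members with a median of 0.47. It passed in 53, 63.9%, where 24.9% of all genes were called and 14.2% were higher. Rpl34 (0.65, SE 0.14, adjusted p = 0.0027), Rps27a (0.63, SE 0.14, adjusted p = 0.0034) and Rps27l (0.56, SE 0.12, adjusted p = 0.0034) led by p, followed by Rpl18 and Rpl41. The count was 7 with GC and length offsets, 9 with limma and 28 with these 4 groups alone. Without 1 library it was 10 (both agents 8 h replicate 2), 13 and 28 (label LPA 8 h replicates 2 and 3), 18 and 33 (both agents 2 h replicates 1 and 3) and 16 (label LPA 2 h replicate 2).

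**Figure D5:**
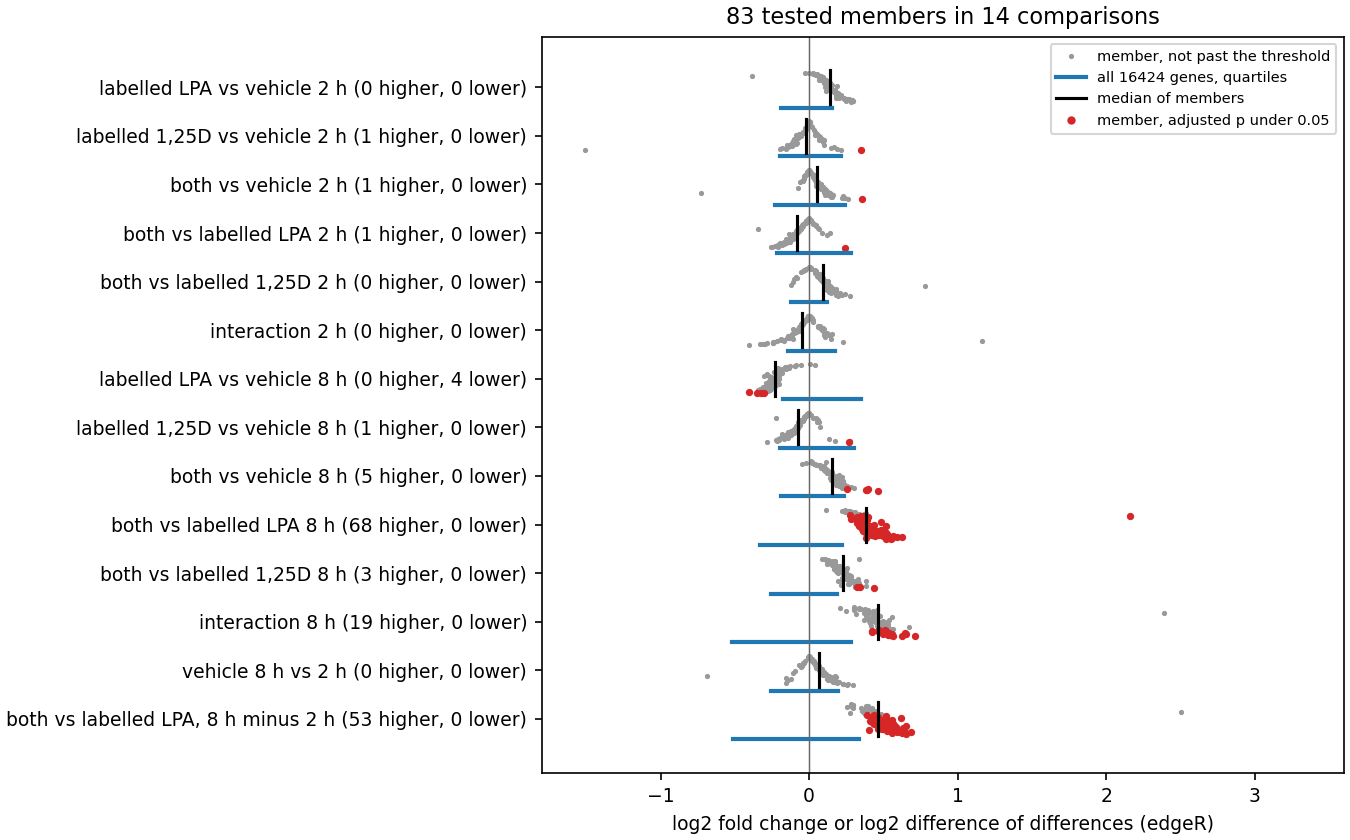
Log2 fold changes of the 83 tested members in 14 comparisons (dots, red where the adjusted p was under 0.05), their median (black line) and the quartiles of all 16424 tested genes (blue bar). The members' dots lie to the right of 0 in the comparison of both agents with the label LPA at 8 h (median 0.38) and in the interaction at 8 h (median 0.46). They do so as well for both agents with the label 1,25D at 8 h (median 0.23) and for the change between times (median 0.47). The lowest value for the label LPA against vehicle at 8 h (-2.05) lies beyond the axis and is not drawn.

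Genes that build ribosomes were called in comparisons where few or no ribosomal protein genes were, and also where most were. Of 40 ribosome biogenesis factors, 16 rose against vehicle with the label 1,25D and 26 with both agents at 2 h, and 31 and 37 at 8 h, with 0 lower in each. Of all tested genes 7.06% and 9.88% were higher in those comparisons at 2 h, and 7.89% and 9.54% at 8 h. With the label LPA 1 rose at 2 h and 1 at 8 h, where 0.597% and 6.62% of all genes were higher. Between vehicle at 8 h and at 2 h, 24 fell and 1 rose, where 8.69% of all genes fell and 0 ribosomal protein genes passed. When both agents were compared with the label LPA at 8 h, 37 of the 40 (92.5%, median 0.59) were higher, as were 68 of 83 members. Of all genes 14.0% were higher there. Tsr1, a factor in small subunit maturation, rose by 0.74 on the log2 scale at 2 h with both agents (SE 0.07, adjusted p = 2.9e-08), and Rrp12, a factor in subunit export, by 0.70 at 8 h (SE 0.07, adjusted p = 2.2e-07). Both fell between vehicle at 2 h and 8 h, by 0.86 and 0.79. The difference between the 2 sets of genes was not tested.

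RNA polymerase I genes and the chaperones of single ribosomal proteins gave smaller counts. With both agents at 8 h, where 9.54% of all genes were higher than in vehicle, 5 of 15 polymerase I genes rose (33.3%), among them Polr1a, its largest subunit (0.52, adjusted p = 2.4e-06), and 5 of 8 chaperones (62.5%), among them Grwd1 (0.40, adjusted p = 0.0004), which binds the protein of Rpl3. With both agents 4 of 19 other TOP messages (21.1%) rose at 8 h, and 0 with the label 1,25D at 2 h. Against the label LPA at 8 h, where 14.0% of all genes were higher with both agents, so were 12 of these 19 (63.2%, median 0.34). The same held for 7 of 9 non-coding TOP host genes of small nucleolar RNAs (77.8%, median 0.48) and 46 of 78 mitochondrial ribosomal protein genes (59.0%, median 0.32). It held as well for 8 of 15 polymerase I genes (53.3%, median 0.28) and 7 of 8 chaperones (87.5%, median 0.40). Among members, 25 of 30 that host small nucleolar RNAs (median 0.36) and 43 of 53 that do not (median 0.39) passed in that comparison.

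Regulators of the family were called in both directions. Myc, a transcription factor for ribosomal genes, rose with the label 1,25D at 2 h by 1.25 (SE 0.17, adjusted p = 2.1e-05) and with both agents by 1.19 (SE 0.17, adjusted p = 2.6e-05). At 8 h it rose with the labels LPA (0.57, adjusted p = 0.034) and 1,25D (0.83, adjusted p = 0.0021) and with both (0.70, adjusted p = 0.0057). Of its network of 9 genes, Myc included, 3 rose and 0 fell with the label LPA at 8 h. In the same network 3 rose and 2 fell with the label 1,25D, and 2 rose and 1 fell with both agents. Of all genes 12.0%, 16.2% and 16.8% were called in either direction there, in that order. Of 19 mTORC1 and LARP1 regulators, Ddit4, an inhibitor of mTORC1, rose with the label LPA at 2 h (0.90, adjusted p = 3.9e-05) and 8 h (1.04, adjusted p = 3.3e-07). It rose as well with both agents at 8 h (1.02, adjusted p = 2.7e-07) and between vehicle at 2 h and 8 h (0.99, adjusted p = 1.9e-06). Eif4ebp1, which encodes a translation repressor that mTORC1 inactivates, rose at 8 h with both agents (0.81, adjusted p = 4.5e-06) and with the label 1,25D (0.62, adjusted p = 0.00021). Rheb, an activator of mTORC1, fell with the label LPA at 8 h (-0.36, adjusted p = 0.0085). At 2 h Rheb rose with the label 1,25D (0.44) and with both agents (0.51). Of the 19, 2 rose and 1 fell with the label LPA at 8 h, where 6.62% of all genes rose and 5.38% fell. Of 8 genes of ribosomal stress and p53, Cdkn1a, a p53 target, rose with the label 1,25D at 2 h (1.18, adjusted p = 3.2e-08) and fell with the label LPA at 8 h (-0.44, adjusted p = 0.0064). Cdkn1a also rose with both agents, by 1.00 at 2 h and 0.67 at 8 h. With the label 1,25D at 8 h it rose by 0.77. Phlda3, of the same 8, rose with the label LPA at 8 h (1.35, adjusted p = 1.2e-05). In that comparison 1 of the 8 rose and 2 fell, where 6.62% of all genes were higher and 5.38% lower. With the label 1,25D at 8 h, 5 of the 8 rose (62.5%) and 0 fell, where 7.89% of all genes were higher. With that label at 2 h, and with both agents at 2 h and 8 h, 2 rose and 0 fell in each. Of all genes 7.06%, 9.88% and 9.54% were higher there, in that order.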

How the data were processed

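RNA-seq of 24 Ocy454 libraries was analysed from tables of 139145 transcripts each. Libraries were made with a DNBSEQ kit from total RNA, per the labels' protocols. The authors deposited estimated counts per transcript, not scaled between libraries and not always whole numbers, per the file headers. They also deposited TPM per transcript, corrected for depth and length, per the file headers. The build was mm39 according to the submitters' processing notes. The program that quantified the reads was not given in the sources used here.

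Transcripts were joined to genes by Ensembl identifier with GENCODE M21 (build GRCm38, used for names, biotypes, lengths and GC content), which matched 135078 and held 99.5 to 99.6% of counts. Per gene, estimated counts and TPM were summed, and the counts rounded. The test was edgeR 4.0.16 in R 4.3.3 (robust quasi-likelihood, TMM scaling, filterByExpr at a minimum count of 10), with 8 groups in 1 fit and Benjamini-Hochberg adjustment over 16424 genes, at a threshold of 0.05. SE is the absolute log2 fold change divided by the square root of F. CPM values use TMM-scaled library sizes. Near-identical copies were found with blastn 2.17.0 (95% identity over 80% of the copy). The code was tested on simulated data. No 2 libraries of a group agreed within counting noise (chi-square/df 7.09 to 134), so none was merged. Promoter sequences came from RefSeq (GRCm38.p6), where 65 of 85 members matched.

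Comparisons were treatments against vehicle, both agents against each label, the interaction at each time and vehicle between times. Alternatives were DESeq2 1.42.0, limma 3.58.1 on log2(TPM + 1), median-of-ratios scaling, TMM without the members, no filter, GC and length offsets, a within-group principal component as covariate, named pseudogenes added, fits of the compared groups only, a replicate block and leaving out each library. Near-identical copies added, and the change between times of both agents against the label LPA, were chosen after seeing the data. The members and the gene lists were chosen with earlier results of these data known. Genes named were the 5 members highest and lowest in TPM, paralog pairs, the 5 smallest p each way per comparison, the 3 most and least variable members, Rps6, Rpsa and the stalk genes, and from each companion list up to 2 genes each way, of which a part is printed. A few genes picked by it are left unnamed and stay in the counts.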

Additional observations from a re-analysis of the deposited data

Results flagged for a closer look

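The interaction at 8 h differed from 0 in 19 of 83 tested members, all positive, where 7.68% of all tested genes were called and 4.06% were higher. The count was 0 with limma, with the 8 h groups fitted alone, and without any 1 of 7 single libraries. A test of the difference between the effect of both agents and the sum of the single effects picked out Rpl13a (0.63), Rps7 (0.57), Rps12 (0.71), Rpl34 (0.54) and Rps9 (0.55) on the log2 scale. The effect of both agents against the label LPA differed between 8 h and 2 h in 53 members, all positive, led by Rpl34 (0.65), Rps27a (0.63), Rps27l (0.56), Rpl18 (0.60) and Rpl41 (0.69), where 24.9% of all genes were called and 14.2% were higher. The count was 7 with GC and length offsets, 9 with limma and 10 without the 8 h library of both agents replicate 2. This comparison was chosen after seeing the data. With groups of 3, single libraries were not tested as outliers.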

How the results depend on the processing

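Of 322 settings of the counts and shares, 210 moved by less than 1.5 times the count or 1 SD of the share. For single members, 474 of 618 settings kept direction and side of the threshold, 141 lost the call and 3 changed sign. The 3 were Rpl12 with copies added: -0.003 for both agents against the label LPA at 2 h, and -0.045 and -0.078 for the label 1,25D against vehicle at 2 h and 8 h. The cause of the changes was not tested.

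Members called are given in the order of the comparisons: label LPA, label 1,25D and both against vehicle at 2 h (0, 1 and 1), both against the labels LPA and 1,25D at 2 h (1 and 0), the 8 h comparisons (4, 1, 5, 68 and 3), interaction at 8 h (19), vehicle between times (0) and the change between times (53). With DESeq2, label LPA at 8 h gave 12, both against the label 1,25D at 8 h 5, the interaction at 8 h 53 and vehicle between times 1. With limma on log2(TPM + 1), label 1,25D at 2 h gave 0, both against the label LPA at 2 h 2, label LPA at 8 h 1, label 1,25D at 8 h 4, both against the labels LPA and 1,25D at 8 h 23 and 0, the interaction at 8 h 0, vehicle between times 2 and the change between times 9. With no filter on low counts, label 1,25D at 2 h gave 2, both against the label LPA at 2 h 0, label LPA at 8 h 23, both against the label 1,25D at 8 h 19 and the interaction at 8 h 66. With the compared groups alone, which have fewer samples, the same order gave 2 for the label 1,25D and 3 for both against the label LPA at 2 h, 0, 0, 2, 7 and 0 at 8 h, 0 for the interaction at 8 h and 28 for the change between times. With GC and length offsets the label 1,25D gave 2, both against vehicle 3 and both against the label LPA 2 at 2 h. At 8 h the offsets gave 4 for the label 1,25D, 10 for both against vehicle, 36 for both against the label LPA, 8 for the interaction and 7 for the change between times. With the within-group component as covariate the counts at 2 h were 18, 3, 6, 11 and 1, and at 8 h 64, 12, 27 and 52 (both against the label 1,25D), 75 for the interaction and 10 for vehicle between times. With copies added they were 0, 0 and 0 for the 3 calls at 2 h, 0, 3 and 1 for the label 1,25D, both against vehicle and both against the label 1,25D at 8 h, and 29 for the interaction.

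Leaving out 1 library gave 0 to 38 (label LPA at 8 h), 18 to 78 (both against the label LPA at 8 h), 0 to 10 (both against the label 1,25D at 8 h), 2 to 6 (both against vehicle at 8 h), 0 to 73 (interaction at 8 h), 10 to 74 (change between times), 0 to 1 (label 1,25D at 8 h, both against the label LPA at 2 h), 1 to 3 (both against vehicle at 2 h) and 0 to 2 (vehicle between times). The share of TPM was 11.4 to 11.5%. It was 4.86% of estimated counts, 14.4% with mitochondrial genes left out of the total, 12.5% with named pseudogenes added and 13.5% with near-identical copies added.

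With the replicate number as a block, 61 members passed for both agents against the label LPA at 8 h and 47 for the change between times. The block with GC and length offsets gave 2 (label 1,25D at 2 h), 2 (both against the label LPA at 2 h), 4 (label 1,25D at 8 h), 9 (both against vehicle at 8 h), 35, 1, 7 (interaction), 1 (vehicle between times) and 8 (change between times). Samples shared only a number: the median correlation of same-numbered libraries was -0.0028, and 6 of 24 libraries correlated best with their own number.

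Depth limited the lowest members: Rpl3l had at most 8 counts in a library, and the estimates for Rps27rt carried SEs of 0.65 to 0.77 against a median of 0.12 over members in the comparisons of 2 groups.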

Other observations

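Mitochondrial ribosomal protein genes, which are encoded in the nucleus and translated in the cytosol, were called in either direction. At 2 h, of 78, 5 fell with the label 1,25D against vehicle, 6.41%, which was below the 6.85% of all genes. With both agents 10 fell and 1 rose against vehicle. Those 10 made up 12.8%, little above the share of all genes (1644 of 16424). With both agents 13 were lower than with the label LPA (16.7%, all genes 9.48%). Whether these shares differ from those of all genes was not tested. Mrpl38 fell by 0.42 with both agents (SE 0.09, adjusted p = 0.0013) and Mrpl10 by 0.30 (SE 0.06, adjusted p = 0.0014). At 8 h 17 rose (21.8%, all genes 9.54%) and 0 fell with both agents, among them Mrpl22 (0.62, SE 0.11, adjusted p = 0.00021) and Mrpl12 (0.59, SE 0.11, adjusted p = 0.00045). The difference from the cytosolic genes was not tested.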
